A study of Mus musculus with 10 samples.

Results

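Picked multiplets with a goblet signature are wells of mouth-pipetted cell doublets or triplets from mouse small-intestinal crypts in which goblet-cell transcripts make up a sizeable part of the RNA. They were selected on measured values: a well was kept when Muc2, Fcgbp, Zg16, Clca3, Tff3 and Agr2 together reached at least 2% of its endogenous transcripts, that is, of all transcripts other than the ERCC spike-in RNA. Of the 470 picked wells with at least 1000 endogenous transcripts, 69 met this limit, 17 of 91 in picked replicate 1, 20 of 179 in picked replicate 2 and 32 of 200 in picked replicate 3. The wells of comparison were the 486 of 1615 sorted single-cell wells that met the same limit, and the 401 picked wells below it. In all, 2085 wells entered.

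The picked libraries carry the codes JC68, JC71 and JC72. The 7 sorted libraries carry the codes GK5a (replicates 1 to 5) and GK5b (replicates 6 and 7). All are labelled C57Bl/6 mice and small intestinal crypts, with no genetic change or treatment named, and picked structures were taken after a mild dissociation. Each library is 1 plate of 384 wells made by CEL-seq2, which primes on the poly(A) tail and counts molecules by random barcodes. Only wells from 73 onwards were used on plate JC68. The labels give no number of cells for single wells, no animal behind a plate and no age or sex. Xist was read in 24 of 69 picked wells and in 0 of 486 sorted wells, whereas the Y-linked Ddx3y was read in 0 of 69 picked and 229 of 486 sorted wells, so sex, code and group cannot be told apart.

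Goblet cells are the mucus-secreting cells of the intestinal epithelium. They arise, like Paneth and enteroendocrine cells, from crypt progenitors in which Notch signalling is low and the transcription factor Atoh1 is on, and their maturation needs Spdef. Their large output of disulfide-linked mucin makes them rely on chaperones and isomerases of the endoplasmic reticulum. In a small-intestinal crypt they lie beside stem, Paneth and cycling progenitor cells, so a picked group can join goblet RNA to that of any of these neighbours.

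The signature took a median of 4.86% of endogenous transcripts in the 69 picked wells, with a highest value of 40.2%, and 7.56% in the 486 sorted wells, with a highest value of 50.3%. Since these values chose the wells, they are described without a test. Between 2% and 4% lay 25 of the 69 picked wells (36.2%) and 102 of the 486 sorted wells (21.0%). The 4 picked wells just inside the limit had 2.01%, 2.05%, 2.09% and 2.09%, and the 4 just outside had 1.87%, 1.89%, 1.92% and 1.95%. A further 39 picked wells and 41 sorted wells lay between 1% and 2%, so the limit passed through a fuller range in the picked plates. By plate, 18.7%, 11.2% and 16.0% of picked wells were members. In sorted libraries 16.1% to 17.5% of GK5a wells passed, against 75.0% and 40.6% of the GK5b wells.

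**Figure D1:**
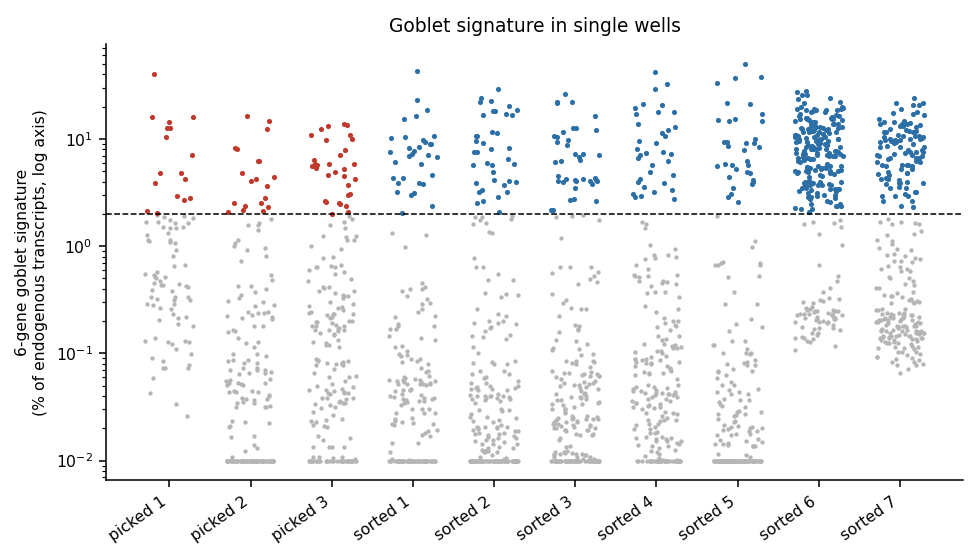
Goblet signature of every used well (log axis, percent of endogenous transcripts), one column per library, with picked libraries on the left and sorted ones on the right. Coloured points are wells at or above the dashed 2% line, grey points are wells below it, and shares under 0.01% are drawn at 0.01%; 69 picked and 486 sorted wells are coloured.

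The 6 signature genes were not present in equal parts. Tff3, a trefoil peptide secreted with mucus, was the highest of the 6 in 55 of 69 picked wells (79.7%) and 288 of 486 sorted wells (59.3%). It made up 37.4 ± 3.58% of the signature in picked libraries (SD, n = 3) and 28.7 ± 3.60% in sorted libraries (SD, n = 7). Muc2, the gel-forming mucin, made up 13.8 ± 2.60% in picked libraries and 19.3 ± 2.57% in sorted libraries. Zg16, a lectin of the mucus layer, led in 4 of 69 picked wells and 92 of 486 sorted wells. All 6 genes were read in 41 of 69 picked wells (59.4%) and 399 of 486 sorted wells (82.1%). On the TMM scale used below, Tff3 averaged 27603 ± 14000 CPM in picked and 26547 ± 3502 CPM in sorted libraries, Agr2 8354 ± 817 and 9348 ± 1265 CPM, and Muc2 11025 ± 8120 and 17931 ± 3047 CPM. Depth differs between these wells: the median well held 8202, 2711 and 3793 endogenous transcripts in picked replicates 1, 2 and 3, against 3108 to 12844 in the sorted libraries. The means of these library medians were 4902 ± 2909 in picked (SD, n = 3) and 7022 ± 4001 in sorted libraries (SD, n = 7; exact two-sided permutation test over libraries, p = 0.467).

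Of 30 goblet genes outside the signature, 15 were lower and 0 higher in picked than in sorted goblet-signature wells, and the other 15 did not pass. For each library, the values of its goblet-signature wells were summed, scaled to library size by TMM, given as CPM, and compared with limma over 4285 genes. At a Benjamini-Hochberg adjusted p under 0.05, 506 genes (11.8% of those tested) were higher and 603 (14.1%) were lower in picked wells. All 30 goblet genes were tested, and their median log2 fold change was -0.98 against -0.09 over all genes tested. The signature was itself lower in picked wells, and with a limit of 4% 12 of the 30 were lower and 0 higher. Without picked replicate 1, 23 of the 30 were lower. In a well meant to hold several cells, a smaller part of goblet cells and less goblet RNA per cell cannot be told apart. The split of calls depends on how the libraries are weighted: with precision weights by depth 569 genes were higher and 204 lower, and 13 of the 30 goblet genes were called lower and 0 higher. Scaling by library totals gave 377 higher and 932 lower calls, since it moved the median of all genes to -0.28.

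Atoh1 (GRCm38 chromosome 6, 64729125 to 64731245), the factor that commits progenitors to the secretory lineages, had 176, 63.4 and 143 CPM in picked replicates 1, 2 and 3, against 355 to 512 CPM in the 7 sorted libraries. No picked library reached the lowest sorted one, and the log2 fold change was -1.83 ± 0.26 (SE; limma adjusted p = 0.000267). It was called in all 23 of the settings run. These count the main fit itself and the inclusion of JC68 wells 1 to 72, which added no member. These picked levels rest on 25, 5 and 25 transcripts. In single wells Atoh1 was read in 10 of 17, 4 of 20 and 12 of 32 picked wells, that is in 58.8%, 20.0% and 37.5%, against 78.8% to 87.2% of the wells in sorted libraries. These shares of wells depend on depth. With all library sums thinned to the smallest one, the log2 fold change was -1.78 (limma adjusted p = 0.000138). Spdef (chromosome 17, 27714352 to 27728955), which acts after Atoh1, had 190, 114 and 235 CPM in picked libraries and 156 to 254 CPM in sorted libraries. The groups overlapped, and the log2 fold change of -0.25 ± 0.24 (SE) did not pass (limma adjusted p = 0.456).

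Of 5 tested genes among 12 of the Notch pathway list, Atoh1 and the ligand Dll1 fell. Dll1 averaged 66.9 ± 23.6 CPM in picked libraries and 180 ± 88.3 CPM in sorted libraries (log2 fold change -1.36, limma adjusted p = 0.0126, which was 0.0878 with precision weights). As a share of all endogenous transcripts other than the signature, the list took 0.0395 ± 0.0057% in picked and 0.0939 ± 0.0174% in sorted libraries. No picked library reached the lowest sorted one (exact two-sided permutation p = 0.0167, the smallest that 3 against 7 libraries allow, 0.0472 after adjustment over 17 lists).

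The goblet genes that fell had varied known roles. Smim14, a small membrane protein, had 176, 203 and 194 CPM in the picked libraries and 532 to 876 CPM in the sorted ones (log2 fold change -1.79 ± 0.17, limma adjusted p = 2.7e-05). Txndc5, a disulfide isomerase, had 740, 647 and 526 CPM in picked and 1342 to 1883 CPM in sorted libraries (log2 fold change -1.30 ± 0.16, limma adjusted p = 0.000114). Rep15, a Rab15 effector, had 183, 50.7 and 40.0 CPM in picked and 319 to 656 CPM in sorted libraries (log2 fold change -2.61 ± 0.37, limma adjusted p = 0.000267). The picked and sorted libraries did not overlap in any of these genes. The others that fell were the glycosyltransferases Galnt12 and Gcnt3, the stress sensor Ern2, the sulfhydryl oxidase Qsox1, the isomerase Pdia5, the tryptase Tpsg1, the chemokine Ccl6, and Bcas1, Sytl2, Slc12a8, Slc50a1 and Kcnk6. Their log2 fold changes ran from -1.47 for Slc50a1 to -0.80 for Bcas1. Qsox1 and Kcnk6 were not called with precision weights.

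Spink4 (chromosome 4, 40920052 to 40931395), a secreted Kazal-type protein and the highest of the 30, had 17285, 11536 and 12209 CPM in picked and 4078 to 12862 CPM in sorted libraries, with overlap (log2 fold change 0.80 ± 0.33, limma adjusted p = 0.0875). Summed over the 30 genes, where Spink4 weighs most, the share was 2.53 ± 0.577% in picked and 3.37 ± 0.666% in sorted libraries, which overlapped (exact permutation p = 0.0833). The picked wells below the limit also held Spink4, at 2771, 2438 and 1579 CPM in replicates 1, 2 and 3, against 76.6 to 394 CPM in sorted wells below the limit.

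Chaperones of the endoplasmic reticulum and unfolded-protein genes fell with the goblet genes. Of 21 tested members of that list of 23, 10 fell and 1 rose. Pdia6 averaged 505 ± 207 CPM in picked and 1001 ± 109 CPM in sorted libraries (log2 fold change -1.08, limma adjusted p = 0.00426). Xbp1, the transcription factor of the unfolded protein response, averaged 466 ± 84.0 CPM in picked and 702 ± 103 CPM in sorted libraries (log2 fold change -0.59, limma adjusted p = 0.0193). Canx, Manf, Sec61b, Hsp90b1, Herpud1, Dnajc3, Atf6 and Pdia4 also fell, and Atf4 was the one that rose (log2 fold change 0.83, limma adjusted p = 0.0036). With precision weights 7 fell and 1 rose. The share of the list was 0.804 ± 0.0307% in picked libraries, against 1.26 ± 0.117% in sorted ones, and the ranges were apart (exact permutation p = 0.0167, adjusted over 17 lists 0.0472).

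**Figure D2:**
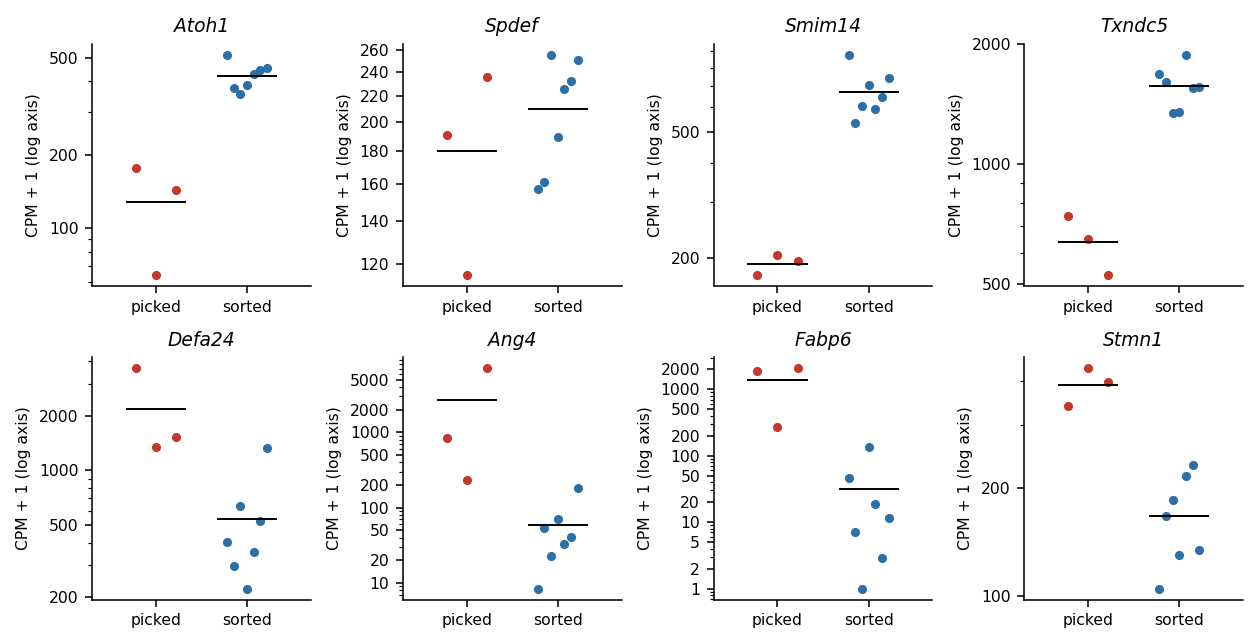
Level of 8 genes in the goblet-signature wells of each library (CPM + 1, log axis), picked libraries in red on the left and sorted libraries in blue on the right of each panel, with the mean as a bar. Atoh1, Smim14 and Txndc5 are lower in every picked library, Spdef overlaps, and Defa24, Ang4, Fabp6 and Stmn1 are higher in every picked library.

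Paneth cells secrete lysozyme and alpha-defensins at the crypt base. Of 14 tested among 32 Paneth genes, 8 rose and 0 fell in picked goblet-signature wells, with a median log2 fold change of 2.12, while the sum over the list overlapped between groups. Among those that did not pass, Mmp7, a matrix protease that activates defensins, had a log2 fold change of -0.87 (limma adjusted p = 0.132). Defa24 (chromosome 8, 21734494 to 21735471) had 3638, 1346 and 1526 CPM in picked and 222 to 1327 CPM in sorted libraries, so that the lowest picked library stood just above the highest sorted one (log2 fold change 2.09 ± 0.45, limma adjusted p = 0.00434). Ang4 (chromosome 14, 51763878 to 51773590), an antimicrobial ribonuclease, had 846, 228 and 7021 CPM in picked and 7.4 to 181 CPM in sorted libraries (log2 fold change 4.78 ± 0.92, limma adjusted p = 0.00234). One well held 68.7% of the Ang4 transcripts of picked replicate 3. Defa17, Defa20, Defa21, Defa22, Gm14851 and Gm15284 rose as well. Of these, Defa20, Defa21 and Defa22 met the filter for testing only through the picked libraries. That filter favours a rise in these genes and in the median of the tested genes. The defensin genes are near-identical copies, so the level of any single one is uncertain. Without picked replicate 1, 2 of 11 tested Paneth genes rose and the median log2 fold change was 0.22, and without picked replicate 2 or 3, 5 of 11 rose. With any picked library left out, Defa20, Defa21 and Defa22 missed the filter and were not tested. The smaller counts thus partly reflect which genes were tested. Against the GK5b libraries alone, 1 of 14 rose and 1 fell. Over all genes tested, 236 of 2955 rose in that setting, so 1 of 14 was not above this background. Without picked replicates 1, 2 and 3 in turn, 428 of 4229, 425 of 4130 and 389 of 4183 of all genes rose.

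Lyz1 (chromosome 10, 117287797 to 117292868), the lysozyme of Paneth cells, showed the spread between plates. It had 6874, 952 and 344 CPM in picked replicates 1, 2 and 3, and 265 to 1602 CPM in sorted libraries. Picked replicate 1 was above every sorted library and the other picked libraries lay within the sorted range (log2 fold change 1.10 ± 0.75, limma adjusted p = 0.296). Without picked replicate 1 its log2 fold change was -0.08.

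As a share of transcripts other than the signature, the Paneth list took 2.89%, 0.673% and 1.24% in picked replicates 1, 2 and 3, against 0.263% to 1.34% in sorted libraries. The means were 1.60 ± 1.15% in picked (SD, n = 3) and 0.569 ± 0.361% in sorted libraries (SD, n = 7; exact two-sided permutation p = 0.0667, adjusted over 17 lists 0.142). Sorted replicate 7 was the highest sorted library, and without it all picked libraries lay above all others (exact permutation p = 0.0238). Without picked replicate 1 the difference was 0.39 percentage points, against 1.03 with it. The picked wells below the goblet limit held 17.5%, 5.41% and 1.19%. These pooled shares lean on a few wells, since single wells below the limit reached 73.2%, 63.6% and 54.6%. The median well had 2.08%, 0.294% and 0.604% among members, against 1.45%, 0.182% and 0.0844% among the other picked wells, so by the median members were higher on every picked plate. The same held in every sorted library. Sorted medians were 0.148% to 0.418% in goblet-signature wells, against 0.0084% to 0.0465% in wells below the limit. In sorted libraries the wells below the limit held 0.280% to 2.00%.

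Many members held some RNA of the Paneth list, and a few held much of it. The list is not made of defensins alone. Itln1 was read in 61 of 69 members, against 50 for Defa24, 46 for Lyz1 and 32 for Mmp7. Before TMM scaling Itln1 had 3213, 945 and 1657 CPM in picked replicates 1, 2 and 3, and 498 to 3155 CPM in sorted goblet-signature wells. Which genes carried a well past a limit was not tested. The richest single well held 30.6%, 25.6% and 49.6% of all Paneth transcripts of the members in picked replicates 1, 2 and 3. After every well was thinned to 1000 barcodes, a well was counted when its Paneth share passed 0.233%, the mean 90th percentile of sorted wells below the goblet limit. In picked replicates 1, 2 and 3, 16 of 17, 13 of 20 and 25 of 32 members passed, together 54 of 69. In sorted libraries 246 of 486 passed, 30.8% to 62.3% per library. The library means were 79.1 ± 14.6% in picked plates and 46.7 ± 10.6% in sorted plates (exact two-sided permutation p = 0.0167). At this depth the limit amounts to a few barcodes per well. With the 95th percentile, 2.28%, 19.6% of picked members passed on average, against 6.90% of the sorted wells (exact permutation p = 0.167). Below the goblet limit, 86.5%, 47.2% and 28.6% of the picked wells passed the lower Paneth limit.

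Free RNA could not be measured in the emptiest stretches of the picked plates, and other wells were not examined for it. In the longest stretches of wells where none reached 1000 transcripts (73 to 288 on JC68, 241 to 384 on JC71 and JC72), wells held on average 2.85, 0.514 and 0.111 Paneth transcripts, against 272, 25.4 and 68.7 in members of the same plates. They also held on average 6.09, 0.611 and 1.51 spike-in transcripts, against 103, 98.5 and 223 in members. With so little spike-in read, a low endogenous count there does not show how much RNA the liquid around a picked cell carried. The part of RNA shed by other cells and taken up with the picked ones was not tested.

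**Figure D3:**
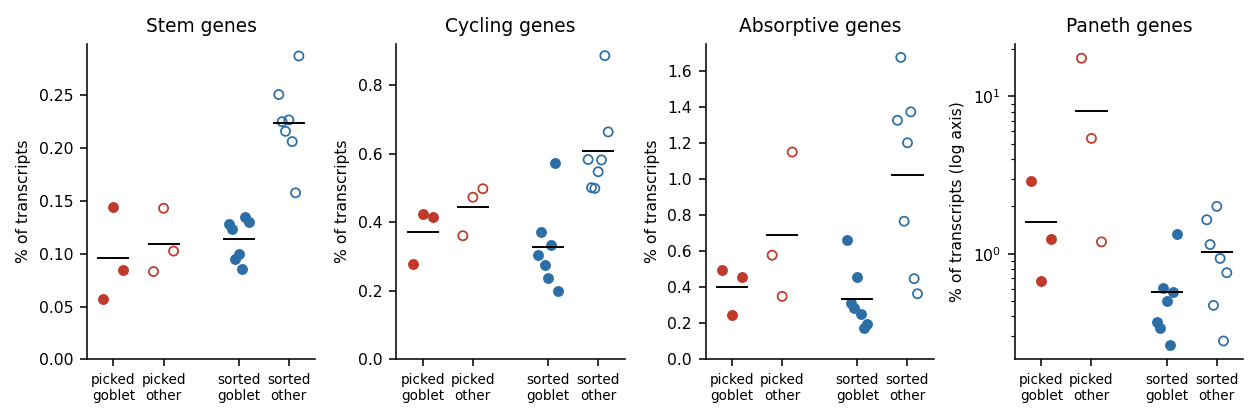
Share of stem, cycling, absorptive and Paneth genes (percent of transcripts other than the 6 signature genes; log axis for Paneth) in wells over the goblet limit (filled) and below it (open), one point per library, picked in red and sorted in blue, with the mean of each column as a bar. The mean stem and cycling shares differ between filled and open points by more in sorted than in picked libraries, and picked Paneth shares reach from 0.673% to 2.89% in goblet-signature wells.

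Stem-cell genes were scarce in members and in the other picked wells. The list of 21 genes took 0.0574%, 0.144% and 0.0848% of transcripts in picked replicates 1, 2 and 3, against 0.0859% to 0.134% in sorted libraries (exact two-sided permutation p = 0.400). At the stem limit of 0.714%, 0 of 69 members passed, which allows a share of up to 4.35%, and 0 of 486 sorted wells, which allows up to 0.617%. Of the picked wells below the goblet limit, 0 of 74, 1 of 159 and 1 of 168 passed in replicates 1, 2 and 3. Their stem shares were 0.0831%, 0.143% and 0.1025%. Of 4 tested stem genes 0 passed, among them Slc12a2, a chloride cotransporter of crypt-base cells, with 176, 533 and 280 CPM in picked and 336 to 683 CPM in sorted libraries (limma adjusted p = 0.114), and Smoc2 (limma adjusted p = 0.684). The count at an unadjusted p under 0.05 was 1 of 4 in limma, and 0 of 4 were called with precision weights. Lgr5, the receptor that marks crypt-base stem cells, was read in 6 of 69 members and was too low to be tested.

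Cycling genes showed like totals and unlike spread over wells. The list took 0.279%, 0.424% and 0.414% in picked replicates 1, 2 and 3, against 0.199% to 0.572% in sorted libraries (exact permutation p = 0.567). The median member, however, had 0.239%, 0.334% and 0.299%, whereas the median sorted goblet-signature well had 0.0548% to 0.147%, and these ranges did not meet. At the top end the order was the opposite one. The highest member had 0.979%, while the highest well of each sorted library had 0.987% to 2.00%. Picked libraries held 17 to 32 such wells and sorted libraries 33 to 198, and a maximum tends to be higher among more wells. No member passed the cycling limit of 1.27% at equal depth, against 31 of 486 sorted wells, 22 of which were in sorted replicate 6 (exact permutation p over the library means = 0.0667). Picked wells below the goblet limit had medians of 0.429%, 0.379% and 0.365%. Of these wells, 0 of 74, 1 of 159 and 6 of 168 passed the cycling limit in replicates 1, 2 and 3.

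Among single cycling genes, 2 of 24 tested among 32 rose and 1 fell, while 5 of 19 tested rose without sorted replicate 6 and 0 of 17 against the GK5b libraries alone. Over all genes tested 11.8% rose and 14.1% fell, so the counts of 2 and 1 of 24 are not above that background. Over all genes 479 of 4163 rose without sorted replicate 6, and 236 of 2955 against the GK5b libraries alone. Stmn1, a microtubule regulator of dividing cells, had 338, 431 and 395 CPM in picked and 104 to 231 CPM in sorted libraries (log2 fold change 1.26 ± 0.24, limma adjusted p = 0.00223). Mcm7, a replication helicase subunit, averaged 157 ± 103 CPM in picked and 45.8 ± 15.7 CPM in sorted libraries (limma adjusted p = 0.0145). Hmgb2, a chromatin protein, averaged 182 ± 24.7 CPM in picked and 418 ± 147 CPM in sorted libraries (log2 fold change -1.12, limma adjusted p = 0.0121, which was 0.0736 with precision weights). The mitotic genes Mki67 and Top2a and the replication clamp Pcna did not pass (limma adjusted p = 0.594, 0.143 and 0.133).

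**Figure D4:**
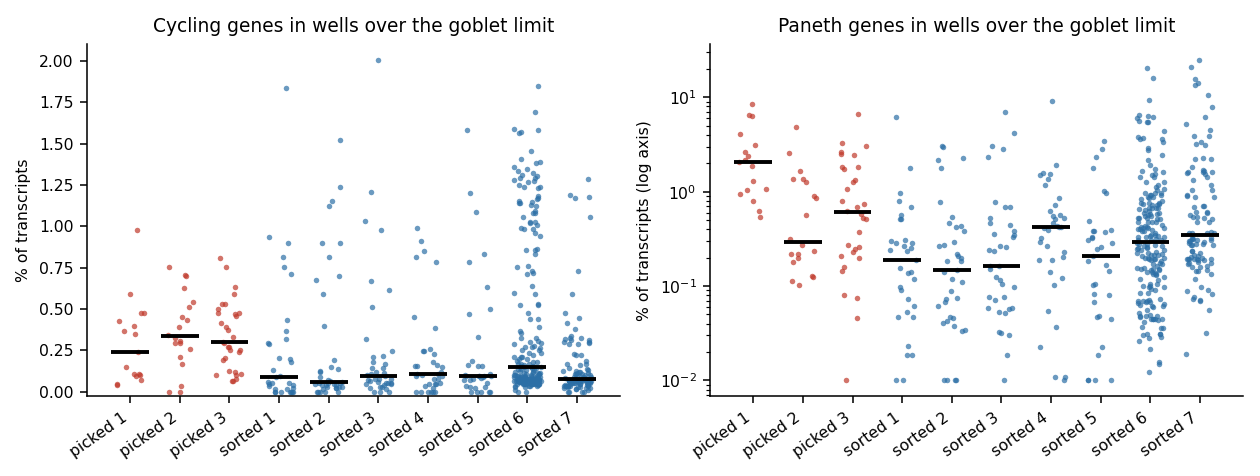
Share of cycling genes (left) and Paneth genes (right, log axis, shares under 0.01% drawn at 0.01%) in each well over the goblet limit, in percent of transcripts other than the 6 signature genes, by library, with the median as a bar. Cycling medians are 0.239% to 0.334% in picked and 0.0548% to 0.147% in sorted libraries, while the highest wells are sorted ones; Paneth medians are highest in picked replicate 1.

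Some absorptive genes rose, while the sum over the list overlapped between groups. The list of 28 took 0.494%, 0.246% and 0.459% in picked libraries, against 0.176% to 0.663% in sorted libraries (exact permutation p = 0.583). Of 14 tested members, 4 rose and 0 fell, against 11.8% higher and 14.1% lower over all genes tested. Fabp6 (chromosome 11, 43596049 to 43601540), the bile acid binding protein of the ileum, had 1869, 267 and 2055 CPM in picked and 0 to 134 CPM in sorted libraries (log2 fold change 6.45 ± 1.19, limma adjusted p = 0.00186). It was read in 12 of 17, 2 of 20 and 18 of 32 members, and 1 well held 95.2% of it in picked replicate 2. The picked wells below the limit held like amounts of Fabp6, 2827, 368 and 1839 CPM. Prap1, a proline-rich secreted protein, had 197, 203 and 263 CPM in picked and 37.5 to 96.5 CPM in sorted libraries (log2 fold change 1.94 ± 0.29, limma adjusted p = 0.000405). Khk, the ketohexokinase, lay at the threshold (limma adjusted p = 0.0497). Fabp6 and Khk met the filter for testing only with the picked libraries counted, and that filter favours a rise in these genes. One member, in picked replicate 3, passed the absorptive limit of 3.22%, and 1 of 486 sorted wells did. Apoa1, Fabp2 and Krt20 did not pass, and Fabp1 and Alpi were too low to be tested. Before TMM scaling Fabp2 had 1011, 756 and 705 CPM in picked and 903 to 2967 CPM in sorted libraries. Krt20 had 570, 277 and 156 CPM in picked and 381 to 889 CPM in sorted libraries on the same scale.

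Over the stem, cycling, absorptive and Paneth limits, 14 of 69 members passed none, 55 passed 1 and 0 passed 2, against 218, 258 and 10 of 486 sorted wells. With the enteroendocrine limit of 0.1% added, 15 of 69 members (21.7%) passed both it and the Paneth limit, and so did 103 of 486 sorted wells (21.2%). In every library, the wells over the enteroendocrine limit were as many as the thinned wells with any barcode of that list. Passing this limit thus meant no more than the presence of any such barcode, and these counts do not show an enteroendocrine cell in a well. One member of picked replicate 2, named after its values were seen, held 6.51% of enteroendocrine and 1.66% of Paneth transcripts. Its 73.7 transcripts of Gcg and 19.0 of Cck, both gut hormones, were all those of that library's members. The enteroendocrine list took 0.101 ± 0.0766% in picked and 0.0423 ± 0.0205% in sorted libraries, with overlap (exact permutation p = 0.133). Chga and Dclk1, markers of enteroendocrine and tuft cells, were too low to be tested.

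Many stress genes were higher in members than in sorted goblet-signature wells. Of 19 tested among 20 immediate-early genes, 12 rose and 0 fell, and of 10 tested among 11 heat shock genes, 9 rose and 0 fell. Jun had 1799, 469 and 738 CPM in picked and 163 to 327 CPM in sorted libraries (log2 fold change 1.81, limma adjusted p = 0.00154). Hspa8, a constitutive chaperone, had 2131, 2249 and 3456 CPM in picked and 631 to 1102 CPM in sorted libraries (log2 fold change 1.45, limma adjusted p = 0.000225). The immediate-early list took 0.559 ± 0.141% in picked and 0.316 ± 0.0405% in sorted libraries, and the heat shock list 0.682 ± 0.179% and 0.404 ± 0.0338%, with no overlap in either (exact permutation p = 0.0167 each, adjusted over 17 lists 0.0472). Without picked replicate 3, 7 of 16 immediate-early genes rose. Heat shock genes took 0.515%, 0.659% and 0.872% in members, against 0.703%, 0.725% and 0.843% in the other wells of the same picked plates. In sorted libraries they took 0.337% to 0.434% in goblet-signature wells and 0.609% to 0.778% in the wells below the limit. The sorted goblet-signature wells were thus low in heat shock genes for their own plates. The immediate-early share was higher in goblet-signature than in other wells by 0.255 points on picked and by 0.192 points on sorted plates (exact permutation p of the difference = 0.400). The part of these stress genes in the other differences between picked and sorted wells was not tested. At 1000 barcodes the median member showed 587, 600 and 611 genes, against 645 to 680.5 in sorted libraries (exact permutation p = 0.0167). Genes of ribosomal proteins took 18.5 ± 1.24% in picked libraries, against 13.4 ± 1.24% in sorted ones, and 49 of 74 tested among 80 rose. By plate the share was 17.1%, 19.4% and 19.1% in members, against 18.0%, 21.0% and 20.3% in the other picked wells, which were thus no lower.

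The genes with the highest rise among those with no overlap and at least 50 CPM in a group were 2310014L17Rik, Fabp6, Defa22, Defa20, Kif3a, Scand1, H2-Q4, Defa21, Ang4 and Sfn. Among them, Fabp6, Defa20, Defa21 and Defa22 met the filter for testing only with the picked libraries counted. Several of the genes with the highest rise were as high in the picked wells below the limit. 2310014L17Rik had 500, 216 and 578 CPM in members and 461, 517 and 547 CPM in the other picked wells, and Kif3a, a kinesin subunit, had 1446, 368 and 298 CPM in members and 1621, 1009 and 197 CPM in the other picked wells. The largest falls were in Ddx3y, Eif2s3y, Gmcl1, Sft2d1, Bcl10, Fam117a, Tm4sf4, Lims1, Lurap1l and Enpp3. The first pair are Y-linked. Of the other 8, Gmcl1 alone was called with precision weights (limma adjusted p = 0.0187), and the highest mean in a picked group among them was 56.6 CPM, for Tm4sf4.

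To set aside what a whole plate shares, the difference between goblet-signature wells and the other wells of the same library was compared between groups. The stem share was lower by 0.0140 percentage points in goblet-signature wells than in the other wells of picked libraries, and by 0.110 in sorted libraries (exact permutation p = 0.0333, adjusted over 17 lists 0.113). The cycling share was lower by 0.0715 points in picked plates and by 0.281 in sorted plates (exact permutation p = 0.0167, adjusted 0.0708). The unfolded-protein share was higher in goblet-signature wells by 0.415 points in picked and by 0.797 in sorted libraries, and the Notch share by 0.00862 and 0.0562 (exact permutation p = 0.0167 each, adjusted 0.0708). On these 4 lists the mean distance of goblet-signature wells from their plate mates was smaller in picked than in sorted libraries. For stem and cycling genes the goblet-signature wells themselves overlapped between groups. In wells below the limit the stem share was 0.0831% to 0.143% in picked and 0.158% to 0.287% in sorted libraries. The cycling share there was 0.361% to 0.498% in picked and 0.499% to 0.886% in sorted libraries. For the Paneth share the mean distance was larger, with a difference of -6.42 points on picked plates and -0.465 on sorted plates (exact permutation p = 0.0833, adjusted 0.142). By plate the difference was -14.6, -4.74 and 0.0528 points in picked replicates 1, 2 and 3, and -1.50 to 0.577 in sorted libraries. These are pooled shares, and by the median well members were higher in Paneth share on every picked plate. Of the 17 lists, 0 passed after adjustment, and 5 had an unadjusted p under 0.05.

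Gene by gene, this difference was called higher in picked libraries for 44 genes (1.03% of 4285) and lower for 167 (3.9%). The 10 with the largest difference were St3gal1, Gmcl1, Nucb2, Ramp1, Sft2d1, Rasd2, Ccl6, Qsox1, Spink4 and Tecpr1, all negative. Ramp1, Ccl6, Qsox1 and Spink4 are goblet genes, for which the split by signature bears on the difference itself. Spink4 differed between goblet-signature and other wells less in picked libraries (difference of log2 differences -2.69 ± 0.31, limma adjusted p = 0.00264), where the other wells held 1579 to 2771 CPM of it. These calls are fragile: with array weights 1 gene was higher and 5 lower, with a goblet limit of 4% there were 0, and scaling by library totals turned the split to 155 higher and 58 lower.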

How the data were processed

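CEL-seq2 transcripts were measured in 10 plates. The submitters' processing notes name BWA 0.6.2-r126 and the build mm10, and no source used here gives the counting software or its strand setting. What the authors deposited for each well is an estimated molecule count of every gene, with no scaling between wells, and 100% map back to whole barcode counts (within 0.001) under the correction for 4096 barcodes. Their unit was recorded as other, so no count model was run. The tables name 18022 genes, and positions come from GENCODE on GRCm38.

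Wells with at least 1000 endogenous transcripts were used, with ERCC spike-ins left out. Groups came from the titles; the labels tie no plate to an animal, so p-values measure the spread between plates, which may be technical. Values of goblet-signature wells were summed per library (79508 to 3007300 transcripts), scaled by TMM, put on the log2(CPM + 1) scale and fitted by limma-trend (limma 3.58.1, R 4.3.3); the fit was tested on simulated data. Fold changes on that scale understate low genes. Genes were tested when 3 libraries held 10 or more transcripts, taken at the median size of a library, and all libraries together 15. Shares of gene lists were compared by exact permutation over libraries, with p as the doubled smaller tail. A first run counted differences of at least the observed size in either direction, which gives an exact permutation p of 0.0333 in place of 0.0667 for the Paneth share; the doubled tail, the more cautious of these, replaced it after those values were seen. Doublets were not called, since wells of more than 1 cell were picked on purpose. Counts of wells carry counting error only.

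Genes named are, by rule, the 10 largest rises and 10 largest falls called with no overlap and at least 50 CPM in a group, the 10 largest differences of differences, every called member of the lineage lists (1 of them is not reported here), 16 fixed genes and the 6 signature genes. Other named genes are called members of the process lists, chosen with values known. The members and lists were chosen with earlier results of these data known. Scaling, filters, weights, limits, depth and single libraries were varied as alternatives. Python 3.11.15, numpy 2.4.6, pandas 2.3.3 and scipy 1.17.1 were used.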

Additional observations from a re-analysis of the deposited data

Results flagged for a closer look

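Of 71 values examined in the sorted libraries, 13 had 1 library far from the others, where chance flags about 1 in 20. Sorted replicate 7 stood high in the Paneth share (1.34% of transcripts), in Ang4 (181 CPM), Defa22 (15.7 CPM), Defa24 (1327 CPM), Gm15284 (680 CPM) and Ccl6 (3276 CPM). Sorted replicate 1 stood high in the Notch list share (0.13%) and in Apoa1 (350 CPM). Sorted replicate 3 stood high in Khk (70.1 CPM), sorted replicate 4 high in Fabp6 (134 CPM) and low in Pdia5 (256 CPM), sorted replicate 5 high in Tecpr1 (117 CPM) and sorted replicate 6 high in Mki67 (486 CPM).

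The difference between goblet-signature wells and the other wells of a library differed between picked and sorted libraries for 5 lists before adjustment over lists (exact two-sided permutation). Picked minus sorted, it was 0.0963 percentage points for stem genes, 0.21 for cycling genes, 0.196 for heat shock genes, -0.382 for unfolded-protein genes and -0.0476 for Notch genes.

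The same difference on the log2 scale, picked minus sorted, was -4.08 for St3gal1, -3.56 for Gmcl1, -3.51 for Nucb2, -3.36 for Ramp1, -3.00 for Sft2d1, -2.93 for Rasd2, -2.83 for Ccl6, -2.71 for Qsox1, -2.69 for Spink4 and -2.69 for Tecpr1 (limma adjusted p under the threshold for each). Picked levels of St3gal1, Gmcl1, Nucb2 and Sft2d1 averaged 16.0, 4.69, 17.4 and 14.2 CPM, so few transcripts carry them.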

How the results depend on the processing

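No paired analysis was possible because the replicate numbers follow accession order and pair no libraries. Differences below are picked minus sorted, shares in percentage points. Leaving out 1 library at a time moved the stem share from -0.0427 (without picked replicate 2) to 0.00077 (without picked replicate 1), the Paneth share from 0.39 to 1.50 and the genes per well from -66.3 to -54.3, where 2 picked plates cannot reach the threshold. Against the GK5a libraries alone the Paneth share was 1.19 (exact p = 0.0357) and the transcripts per well 84.6. Against GK5b alone the cycling share was -0.0129 and the genes per well -50.7. With a goblet limit of 1% the cycling share was -0.00329. Taken against other wells of the library, the differences were 0.0963 (stem), 0.21 (cycling), -5.95 (Paneth), -0.371 (ribosomal protein) and -0.00042 (erythroid). Without thinning, genes per well differed by -751; relative to spike-ins, the log2 transcripts per well by 0.848. With the 95th percentile as limit, wells over it differed by 12.7 points for Paneth, 0 for absorptive and 1.67 for enteroendocrine genes. The 1109 calls became 710 with a goblet limit of 4% (fewer wells), 332 against GK5b alone and 540 of 1852 genes after thinning the sums. The 211 differences of differences became 6 with array weights, 116 with precision weights, 0 at the 4% limit, 56 against GK5a and 1 against GK5b alone, 3 after thinning, and 91 to 292 with 1 library left out (97 without picked replicate 2, and 137, 91, 121, 123, 97 and 95 without sorted replicates 1, 2, 3, 5, 6 and 7). Of the named genes, 5 changed sign under some setting, none of them called in picked against sorted wells. Apoa1 had log2 fold changes of 1.68 with array weights, 3.21 with precision weights and -1.76 to 1.25 with 1 library left out, Lyz1 -0.085 to 2.07, Mki67 -0.29 against GK5b alone and -0.069 to 0.63, Ramp1 -1.70 to 0.048 and Spdef -0.46 to 0.047. The causes were not tested. Thinning, precision weights and the spike-in ratio were compared because members had fewer transcripts than most sorted wells; thinned sums and precision weights were added after the data were seen. Depth limits low genes most: the smallest picked sum was 79508 transcripts.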

Other observations

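Wells 1 to 72 of plate JC68 were outside the set used here. Of them, 31 held at least 1000 endogenous transcripts, the highest signature among these was 0.377%, and 0 met the goblet limit, so no member was lost by leaving them out. In the members, the tuft list averaged 0.0019% in picked libraries and 0.0015% in sorted ones, and the immune list 0.0039% and 0.00088% (p = 0.817 and 0.333 by exact permutation). The stromal and endothelial list took 0.00079% and 0.00009%, and the erythroid list 0.00021% and 0%. Malat1, a nuclear RNA, averaged 678 ± 482 CPM in picked and 2208 ± 447 CPM in sorted libraries (log2 fold change -1.91, limma adjusted p = 0.000779). The nuclear RNA list it belongs to took 0.145 ± 0.0791% in picked libraries and 0.300 ± 0.0609% in sorted ones, with overlap (p = 0.0333 by exact permutation, adjusted over 17 lists 0.0809). Junction and adhesion genes took 0.916 ± 0.0667% in picked libraries and 1.24 ± 0.0532% in sorted ones (p = 0.0167 by exact permutation, adjusted over 17 lists 0.0472).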
